A study of Mus musculus with 2 samples.

Results

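The genes described here are 10 genes of the basement membrane and of the integrins that bind it, taken by symbol from the 31053 genes listed for the library. They are Col18a1, Col4a1, Col4a2, Lama1, Lama3, Lama5, Lamb1, Lamc1, Itga6 and Itgb1. They were followed in single epithelial cells sorted from mouse lung at embryonic day 15, profiled with the 10x Chromium 3′ platform (chemistry v2). The series holds 1 library with the genotype control and 1 library of the same day, tissue and sorted cell type in which the LEF/TCF transcription factors were knocked out. Expression in the knockout library was not analysed here, so all values below come from cells labelled control. The labels give neither the strain, the number or sex of embryos, nor the Cre driver or sorting marker. The 3568 control and 5342 knockout barcodes had 29 sequences in common.

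The basement membrane is the thin sheet of matrix on which an epithelium rests. Laminins are trimers of an alpha, a beta and a gamma chain that polymerise at the cell surface, where integrins hold them, and a network of type IV collagen is joined to them by linkers and proteoglycans. In the branching lung the epithelium and the surrounding mesenchyme both contribute to this sheet, which is remodelled around the growing distal tips.

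After filtering, 3457 cells were kept, with a median of 12826 UMIs (unique molecular identifiers, each standing for 1 captured RNA molecule) and 3049 genes per cell. Clusters were built without the 10 genes, 88 related genes and 94 cell-cycle genes. They gave 1203 distal progenitor-like cells (Sox9, Etv5 and Sftpc higher than in airway-like cells), 747 airway-like cells (Sox2, Scgb3a2), 664 alveolar type 2-like cells (Sftpb, Sftpa1, Lamp3), 43 mesenchymal-like cells, 27 cells with almost no mitochondrial UMIs, and 773 cells called alveolar type 1-leaning. In that last cluster 3 of 13 type 1 markers, Ager, Clic5 and Emp2, were at 1.5 times or more the level of all other cells, so it did not reach the marker rule for a name. The cluster also had 6 of 8 distal markers at 1.5 times or more the level of airway-like cells. Clic5 and Emp2 were nearly as high in airway-like cells (2.60 against 2.90 and 44.8 against 46.6 CPM), and the type 1 marker Pdpn was lower in the type 1-leaning (38.7 CPM) than in distal progenitor-like cells (46.9 CPM). Airway markers were also above their distal progenitor-like level there, Sox2 at 19.8 against 5.18, Scgb3a2 at 16.4 against 6.01 and Cldn10 at 209 against 57.0 CPM, and their part in the levels of this class was not tested. Distal markers stayed near their distal progenitor-like level in alveolar type 2-like cells, Sox9 at 171.6 against 172.2, Etv5 at 254.5 against 268.8 and Mia at 306.4 against 284.2 CPM. Spry2 was lower there, at 38.25 against 56.85 CPM, and so was the type 2 marker Abca3, at 7.68 against 10.15 CPM. Of the 13 type 2 markers, only Sftpb, Sftpa1, Lamp3 and Napsa met the naming limit against all other cells. In alveolar type 2-like against distal progenitor-like cells, Sftpb was at 71.9 against 34.1 and Sftpa1 at 76.9 against 35.6 CPM. Lamp3 was at 6.86 against 5.04 and Napsa at 2.40 against 1.31 CPM. Epcam, a general epithelial marker, was at 438 to 987 CPM (counts per 1000000 UMIs of a class) in the 4 epithelial classes and at 8.21 CPM in mesenchymal-like cells. The mesenchymal marker Col1a1 was at 0.331 to 0.511 CPM in the 4 classes and at 279 CPM in mesenchymal-like cells. The summed level of the 9 mesenchymal markers was highest among epithelial classes in airway-like cells (21.7 CPM, against 1.82 to 5.57 CPM in the other 3). Most of that sum was 1 gene, Dcn, at 17.7 CPM, with Mfap4 next at 2.26 CPM and Col3a1 and Meox2 at 0. The part of these markers in the levels below was not tested. Doublets were not removed by a caller. Cells with both Xist and a Y-linked UMI, which mark droplets holding cells of both sexes, made up 2.83% of distal progenitor-like, 2.56% of alveolar type 2-like, 6.16% of airway-like and 19.7% of alveolar type 1-leaning cells. Median depth was 10804 UMIs in distal progenitor-like, 16002 in alveolar type 2-like, 19129 in alveolar type 1-leaning and 9289 in airway-like cells.

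With 1 library there is no replicate spread and no test. Each level is a sum of UMIs over the cells of a class, with an exact 95% Poisson interval, each ratio has an exact conditional interval, and each share of UMIs or cells has an exact binomial (Clopper-Pearson) interval. All of them cover counting error only. Embryos were not separated, so differences between embryos are not in these intervals.

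The 10 genes lie on 7 chromosomes of GRCm38 (GENCODE M21). Col4a1 (chr8:11198423-11312826, minus strand) and Col4a2 (chr8:11312805-11449287, plus strand) are read away from each other, and their first exons overlap by 22 bases. RefSeq windows of GRCm38.p6, from 250 bases before to 50 bases after a start, were matched for 6 of the 10 genes, with 7 windows in all. The shared start of the collagen pair is shown because it ties the genes of the 2 chains of the main collagen IV network to 1 piece of DNA, and its capitals mark the 22 bases in both first exons. The stretches before the starts of Col18a1 and Itgb1 are shown because these genes had the highest and the lowest ratio between distal progenitor-like and airway-like cells. That of Lama5 is shown because this gene alone among the 10 was lowest in alveolar type 2-like cells. In these 3 sequences, capitals mark the GC box, spelled GGGCGG. In Col18a1 they also mark the CCAAT box, named by its letters. Both were searched on either strand.
Col4a1 and Col4a2 shared start, chr8:11312801-11312830, plus strand: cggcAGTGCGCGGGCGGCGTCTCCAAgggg
Col18a1 upstream, chr10:77166549-77166780, minus strand: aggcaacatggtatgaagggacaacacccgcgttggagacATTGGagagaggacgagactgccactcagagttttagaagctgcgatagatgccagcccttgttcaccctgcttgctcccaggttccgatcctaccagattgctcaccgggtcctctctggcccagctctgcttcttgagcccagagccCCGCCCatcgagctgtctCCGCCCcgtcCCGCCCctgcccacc
Lama5, chr2:180225860-180226109, minus strand: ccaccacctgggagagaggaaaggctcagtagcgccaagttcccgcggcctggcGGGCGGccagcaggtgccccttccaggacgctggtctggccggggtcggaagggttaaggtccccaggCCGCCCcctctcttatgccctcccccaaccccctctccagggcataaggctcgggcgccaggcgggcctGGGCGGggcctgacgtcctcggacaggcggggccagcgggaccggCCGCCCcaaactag
Itgb1, chr8:128685404-128685653, plus strand: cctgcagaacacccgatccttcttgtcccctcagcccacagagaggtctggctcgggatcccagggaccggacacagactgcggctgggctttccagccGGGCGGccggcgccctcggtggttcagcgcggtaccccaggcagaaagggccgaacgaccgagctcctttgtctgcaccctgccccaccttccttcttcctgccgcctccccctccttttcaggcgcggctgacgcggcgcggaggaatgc
The Col18a1 stretch held 3 GC boxes and 1 CCAAT box, that of Lama5 held 4 GC boxes, and that of Itgb1 held 1. A GC box was found in the 250 bases before the start in 5 of the 7 windows, and in 32.7% of all 32817 windows of the same length. A CCAAT box was found in 4 of the 7 windows and in 33.8% of all windows. Col18a1 had 2 of the 7 windows, the one shown and an internal one that held 0 of either box. CTTTGAT, or in its place CTTTGTT, which LEF/TCF factors are known to bind, was in 0 of the 7 windows and in 8.07% of all windows. TGAGTCA, read by AP-1 factors, was in 0 of 7 and 4.46%, and CCGGAA, read by ETS factors, was in 0 of 7 and 12.0%. These are matches of letters within short windows and say nothing of binding.

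The collagens came first in the order of roles. Col18a1 (ENSMUSG00000001435, chr10:77052178-77166548), which encodes the proteoglycan collagen XVIII and the source of endostatin, had a level of 115 CPM in the distal progenitor-like class (interval 109 to 120.2), 92.1 CPM in alveolar type 2-like cells (86.8 to 97.7), 60.7 CPM in alveolar type 1-leaning cells (57.1 to 64.5) and 16.7 CPM in airway-like cells (14.1 to 19.6). It was the only one of the 10 whose levels fell into 4 steps with no 2 neighbouring intervals overlapping. The highest class stood 6.86-fold above the lowest. After each cell was thinned to 5000 UMIs, so that cells of different depth could be compared, 42.0% of 1175 distal progenitor-like cells (39.2% to 44.9%) and 5.58% of 699 airway-like cells (3.997% to 7.55%) had a Col18a1 UMI. Without thinning the shares were 68.7% and 13.5%. Thinning removed 48 shallower airway-like cells and 28 shallower distal progenitor-like cells. In 38 mesenchymal-like cells at 5000 UMIs, 0 had a Col18a1 UMI, which allows a share of up to 7.89%, and unthinned 1 of the 43 did. As measures of free RNA, Sftpc, a surfactant gene of the epithelium, was seen in 10.5% of these mesenchymal-like cells, and Col1a1 in 0.151% of epithelial cells, both at 5000 UMIs. The Col18a1 share in airway-like cells lay below the first and above the second of these. Over all kept cells, however, Sftpc was at 1360 CPM and Col18a1 at 74.4 CPM. The Sftpc share therefore sets no limit for free Col18a1 RNA, whose part in the airway-like level was not tested.

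Col4a1 and Col4a2 encode the 2 chains of the most widespread collagen IV trimer. Col4a1 (ENSMUSG00000031502) was at 39.5 CPM in distal progenitor-like (36.3 to 42.9), 31.1 CPM in alveolar type 2-like (28 to 34.4), 32.7 CPM in alveolar type 1-leaning (30.1 to 35.5) and 27.9 CPM in airway-like cells (24.5 to 31.6). The first class stood above the other 3, while alveolar type 2-like cells could not be told from their neighbours in the order. Col4a2 (ENSMUSG00000031503) was at 27.0 CPM (24.4 to 29.8), 22.5 CPM (19.9 to 25.3), 18.01 CPM (16.1 to 20.1) and 15.7 CPM (13.2 to 18.5) in the same classes, and every pair of neighbours overlapped. Col4a1 took 59.4% of the UMIs of the pair in distal progenitor-like (56.2% to 62.5%), 58.0% in alveolar type 2-like (54.1% to 61.9%), 64.5% in alveolar type 1-leaning (61.3% to 67.6%) and 64.0% in airway-like cells (59.0% to 68.8%). The 4 intervals lay close together, so the balance of the pair moved little across classes. Both genes were also present in the 43 mesenchymal-like cells, Col4a1 at 87.6 CPM (59.9 to 124) and Col4a2 at 38.3 CPM (20.9 to 64.3).

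Among the laminin alpha chains, which set the receptors a laminin binds, Lama3 (ENSMUSG00000024421, chr18:12333819-12583013) encodes the chain of laminin-332. It was at 12.4 CPM in distal progenitor-like (10.7 to 14.4), 10.8 CPM in alveolar type 2-like (9.05 to 12.8), 7.78 CPM in alveolar type 1-leaning (6.53 to 9.20) and 2.15 CPM in airway-like cells (1.29 to 3.35). Airway-like cells stood apart from all 3 other classes. An antisense gene, Gm29200, shares 197 exon bases with Lama3 away from the 3′ end. Lama5 (ENSMUSG00000015647, chr2:180176373-180225859), the alpha chain of laminin-511, was at 23.97 CPM (21.5 to 26.6), 14.1 CPM (12.1 to 16.4), 21.7 CPM (19.6 to 23.99) and 17.4 CPM (14.8 to 20.4) in the same order of classes. Its lowest level was in alveolar type 2-like cells, but their interval overlapped that of airway-like cells. Lama1 (ENSMUSG00000032796, chr17:67697259-67822647), the alpha chain of laminin-111, an early embryonic laminin, was scarce, with 30, 15, 19 and 5 UMIs, or 2.07, 1.24, 1.08 and 0.565 CPM. All neighbouring intervals overlapped for Lama1, and only those of the highest class (1.40 to 2.96 CPM) and the lowest (0.183 to 1.32 CPM) were apart.

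The make-up of the alpha chain UMIs differed between classes. Lama5 took 62.3% of them in distal progenitor-like (58.1% to 66.3%), 53.9% in alveolar type 2-like (48.3% to 59.5%), 71.0% in alveolar type 1-leaning (67.0% to 74.8%) and 86.5% in airway-like cells (80.6% to 91.2%). Lama3 took 32.3% (28.4% to 36.4%), 41.3% (35.8% to 47.0%), 25.5% (21.8% to 29.4%) and 10.7% (6.55% to 16.2%). Airway-like cells thus had the highest Lama5 and the lowest Lama3 share, and alveolar type 2-like cells the reverse. In cells of at most 14000 UMIs, the Lama3 share was 29.97% in distal progenitor-like, 43.1% in alveolar type 2-like, 19.5% in alveolar type 1-leaning and 5.49% in airway-like cells.

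**Figure D1:**
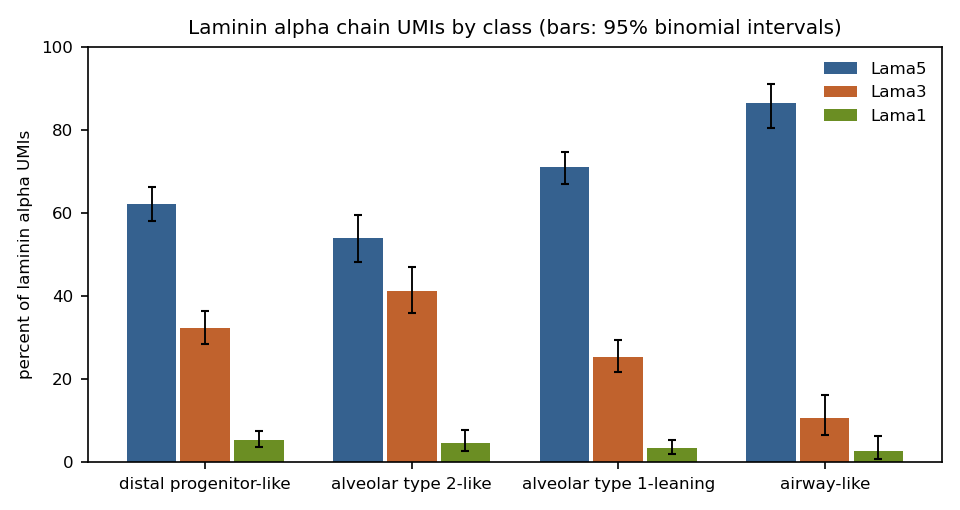
Share of Lama5, Lama3 and Lama1 among their summed UMIs (vertical axis, percent) in the 4 epithelial classes of the control library; error bars are 95% binomial intervals. Lama5 runs from 53.9% in alveolar type 2-like to 86.5% in airway-like cells while Lama3 runs from 41.3% to 10.7%.

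Lamb1 and Lamc1 encode the beta 1 and gamma 1 chains that the laminins with Lama1 or Lama5 use. Lamb1 (ENSMUSG00000002900, chr12:31265234-31329644) was at 29.4 CPM in distal progenitor-like (26.6 to 32.3), 21.4 CPM in alveolar type 2-like (18.9 to 24.2), 22.9 CPM in alveolar type 1-leaning (20.8 to 25.3) and 16.9 CPM in airway-like cells (14.3 to 19.9). Lamc1 (ENSMUSG00000026478, chr1:153218922-153332786) was at 82.9 CPM (78.3 to 87.8), 72.2 CPM (67.5 to 77.2), 65.8 CPM (62.1 to 69.7) and 23.0 CPM (19.98 to 26.4). Both were highest in distal progenitor-like and lowest in airway-like cells, with a wider step for Lamc1. Lamb1 therefore took 26.1% of the UMIs of the pair in distal progenitor-like (24.02% to 28.4%) and 42.4% in airway-like cells (37.2% to 47.7%). At 5000 UMIs, 33.4% of cells of the distal progenitor-like class (30.8% to 36.2%) and 10.01% of those of the airway-like class (7.89% to 12.5%) had a Lamc1 UMI, and unthinned 57.6% and 20.9%.

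The integrin subunits followed another order. Itga6 (ENSMUSG00000027111, chr2:71745616-71858416), the alpha subunit of laminin-binding integrins, was at 24.6 CPM in distal progenitor-like (22.1 to 27.3), 22.4 CPM in alveolar type 2-like (19.8 to 25.2), 18.3 CPM in alveolar type 1-leaning (16.4 to 20.5) and 17.2 CPM in airway-like cells (14.5 to 20.1). It went from high to low in the direction of most of the matrix genes, with every pair of neighbours overlapping. Itgb1 (ENSMUSG00000025809, chr8:128685654-128733200), the beta subunit shared by most matrix-binding integrins, was at 71.3 CPM (67.0 to 75.8), 86.9 CPM (81.7 to 92.3), 85.7 CPM (81.4 to 90.2) and 85.9 CPM (79.9 to 92.3). It was the only one of the 10 with its lowest level in distal progenitor-like cells, and the other 3 classes could not be told apart. Only the larger of the 2 clusters of that class was low, at 65.5 CPM (60.8 to 70.6). The smaller was at 86.8 CPM (77.8 to 96.6), the level of the other classes. At 5000 UMIs, 31.0% of distal progenitor-like (28.3% to 33.7%) and 33.5% of airway-like cells (29.98% to 37.1%) had an Itgb1 UMI, and 52.0% and 57.0% unthinned. Itgb1 was also at 90.3 CPM in mesenchymal-like cells (62.2 to 127), where Itga6, Lama1 and Lama3 had 0 UMIs, which allows up to 8.21 CPM for each.

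**Figure D2:**
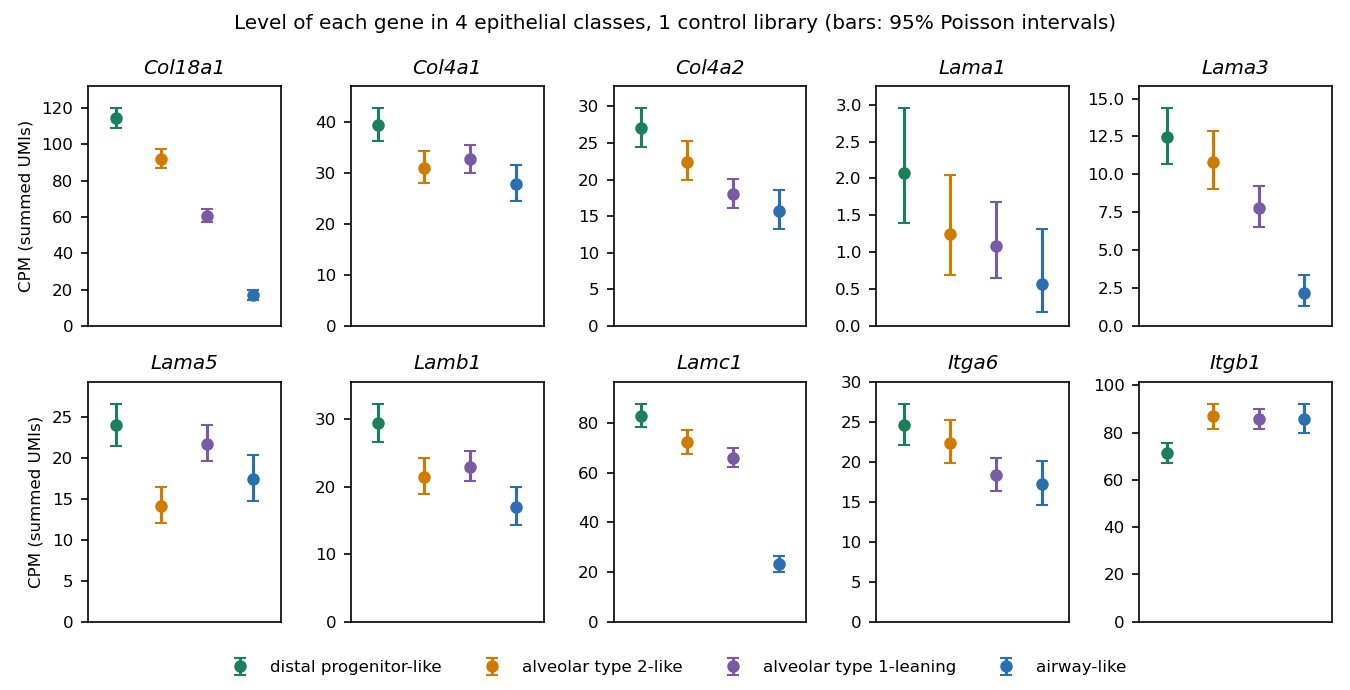
Level of each gene (vertical axis, CPM from UMIs summed over the class, from 0, with its own scale in each panel) in the 4 epithelial classes of the control library; error bars are 95% Poisson intervals. Of the 9 genes with at least 50 UMIs over the distal progenitor-like and airway-like classes, Col18a1, Lama3 and Lamc1 have the highest ratios between them, and Itgb1 is lowest in distal progenitor-like cells.

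Distal progenitor-like cells were then set against airway-like cells, the ends of the axis from the growing tips to the conducting tubes. Of the 10 genes, 9 had at least 50 UMIs over both classes, and 5 of these were 1.5-fold or more higher in distal progenitor-like cells: Col18a1, Lama3, Lamc1, Lamb1 and Col4a2. Of the 9, 0 were 1.5-fold or more lower. Among all 10601 genes with as many UMIs, 6.70% were that much higher and 23.3% that much lower. The median log2 ratio was 0.78 over the 9 genes and -0.20 over all genes. Relative to that median of all genes, 8 of the 9 were higher by 1.5-fold or more, where 11.6% of all genes were that much higher and 15.0% that much lower. Of all genes past 1.5-fold, 43.7% were higher with this centring and 22.3% without it.

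Col18a1 had a ratio of 6.86 (interval 5.79 to 8.17), Lama3 5.79 (3.604 to 9.85) and Lamc1 3.601 (3.10 to 4.198). These were large by the measure of the library, with 99.6%, 99.4% and 98.9% of all genes tested having a lower ratio. Lamb1 had a ratio of 1.73 (1.44 to 2.10) and Col4a2 one of 1.72 (1.41 to 2.10). Neither was past 1.5-fold in the 6 alternatives that left the alveolar cells inside the distal class, where Lamb1 was at 1.24 to 1.47 and Col4a2 at 1.30 to 1.44. Just under the limit of 1.5 lay Itga6 at 1.43 (1.18 to 1.74), Col4a1 at 1.42 (1.22 to 1.65) and Lama5 at 1.38 (1.14 to 1.68), all with intervals above 1. Lama1, with 35 UMIs, had a ratio of 3.67 (1.41 to 12.1). Itgb1 alone was lower, with a ratio of 0.830 (0.755 to 0.912), and 44.5% of all genes tested lay below it.

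The size of the larger ratios depended on the cells that entered, while their direction stayed in every alternative run. In cells of at most 14000 UMIs the ratio was 11.6 for Col18a1, 10.8 for Lama3 and 4.81 for Lamc1. In cells with Xist at 4 UMIs or more and no Y-linked UMI, the ratio of Col18a1 was 5.93 (4.39 to 8.16), and in cells with a Y-linked UMI and no Xist it was 12.9 (8.99 to 19.1). In the airway-like class Col18a1 was at 18.3 CPM in the first and 9.42 CPM in the second set, and in the distal progenitor-like class at 108 and 121 CPM. Lamc1 had ratios of 3.13 (2.40 to 4.13) and 5.15 (3.87 to 6.98) in the same sets, Lama3 4.35 (2.06 to 10.6) and 12.4 (4.07 to 62.0), and Itgb1 0.719 (0.601 to 0.862) and 0.809 (0.694 to 0.945). The intervals of the 2 sets were apart for Col18a1, and those of the other 3 genes overlapped. Whether the 2 sets differ beyond counting error was not tested. Keeping cell-cycle genes in the clustering gave the lowest ratios, 2.81 for Col18a1, 2.50 for Lama3 and 1.81 for Lamc1, with 970 airway-like cells in place of 747 and with the alveolar cells left inside a distal class of 2416.

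Alveolar type 2-like cells were compared with distal progenitor-like cells, from which alveolar cells arise. Of the 9 genes with at least 50 UMIs, 1 was past 1.5-fold, Lama5, which was lower with a ratio of 0.589 (0.488 to 0.710). Among 10491 genes, 5.80% were that much lower and 15.2% that much higher, or 21.0% in all. The median log2 ratio was -0.27 over the 9 genes and 0.01 over all genes. Lamb1 at 0.729 (0.622 to 0.853), Col4a1 at 0.786 (0.689 to 0.897), Col18a1 at 0.804 (0.744 to 0.868), Col4a2 at 0.832 (0.710 to 0.974) and Lamc1 at 0.870 (0.797 to 0.951) also had intervals below 1. Those of Lama3 at 0.870 (0.690 to 1.096) and Itga6 at 0.911 (0.775 to 1.07) held 1. Itgb1 went the other way, at 1.22 (1.12 to 1.33). Without the smaller of the 2 clusters that made up the distal progenitor-like class, Lama5 was at 0.708 and so not past 1.5-fold. At a clustering resolution of 0.8 Lama5 was at 0.781, Lamb1 at 0.888 and Col4a1 at 0.970. In that setting Col18a1 at 1.02, Col4a2 at 1.099, Lama3 at 1.144, Lamc1 at 1.066 and Itga6 at 1.08 were above 1, so their direction was not kept. The 14 alternatives that gave a value had Lama5 below 1 and Itgb1 above 1.

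Alveolar type 1-leaning cells had 2 of the 9 genes past 1.5-fold against distal progenitor-like cells, both lower: Col18a1 at 0.530 (0.490 to 0.573) and Lama3 at 0.626 (0.498 to 0.786). Among 10936 genes, 2.17% were that much lower and 14.5% that much higher, or 16.7% in all. The median log2 ratio was -0.36 over the 9 genes and 0.12 over all genes, and relative to the latter 3 of the 9 were lower by 1.5-fold or more, where 3.81% of all genes were that much lower and 9.63% that much higher. Higher genes made up 87.0% of all genes past 1.5-fold without this centring and 71.6% with it. Col4a2, at 0.667 (0.573 to 0.775), lay at the edge of the limit. Itga6 at 0.746 (0.640 to 0.870), Lamb1 at 0.782 (0.680 to 0.898), Lamc1 at 0.794 (0.731 to 0.861) and Col4a1 at 0.828 (0.736 to 0.931) had intervals below 1, and that of Lama5 at 0.905 (0.781 to 1.05) held 1. Itgb1 was again higher, at 1.203 (1.11 to 1.303). Lama1 had a ratio of 0.521 (0.277 to 0.956) from 19 against 30 UMIs. Without the cells holding Xist and a Y-linked UMI, which were 19.7% of this class, Col18a1 was at 0.477 and Lama3 at 0.574. Without the smaller distal cluster Lama3 was at 0.716, and with 30 components at 0.877 with Col18a1 at 0.721, so these calls were lost there. Both alveolar comparisons and the airway comparison use the same distal progenitor-like cells, so the 3 sets of ratios are not independent.

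**Figure D3:**
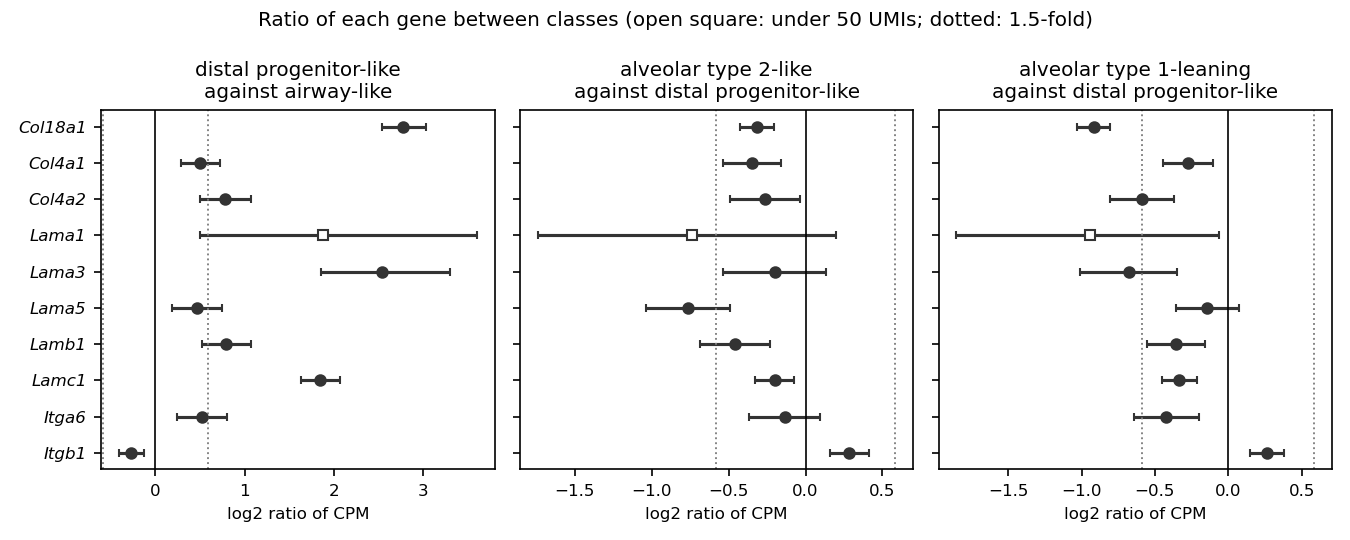
Ratio of CPM for each gene (horizontal axis, log2 scale) in the 3 comparisons of epithelial classes of the control library; bars are exact 95% intervals, dotted lines mark 1.5-fold, and the open square is Lama1, with under 50 UMIs. Itgb1 lies on the opposite side of 0 from the other genes in all 3 panels.

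The distal progenitor-like class was made of 2 clusters. The larger, of 835 cells, was led by Meg3, Bmp4, Spry2 and Sox9. The smaller, of 368 cells, was led by the mitotic genes Incenp, Depdc1a, Knstrn and Pimreg and by Ak1, Sftpb and Oaf. The smaller cluster also had more UMIs of the 94 cell-cycle genes (9700 against 8063 CPM), of 6 immune markers (15.6 against 1.14 CPM) and of 8 red cell and platelet markers (258 against 2.08 CPM). Of the last, the platelet gene Pf4 was at 224 CPM in the smaller cluster. A single cell held 867 of the 897 Pf4 UMIs of all epithelial cells, so the platelet difference was largely that of 1 cell. The part of the cell-cycle, immune and platelet genes in the differences between the clusters was not tested. In the smaller cluster, 3 of 9 genes were 1.5-fold or more higher than in the larger one, and 0 were lower. Lama5 was at 34.8 against 19.96 CPM (ratio 1.75, 1.40 to 2.18), Lamb1 at 42.3 against 24.6 CPM (1.72, 1.41 to 2.10) and Lama3 at 16.6 against 10.9 CPM (1.53, 1.11 to 2.09). The share of all genes past 1.5-fold was 13.3% higher and 4.99% lower, or 18.3% in all. Col18a1 was at 145 against 103 CPM (1.41, 1.27 to 1.56) and Itgb1 at 86.8 against 65.5 CPM (1.32, 1.16 to 1.51). Col4a1, Col4a2, Lamc1 and Itga6 had ratios of 0.876 to 1.07 with intervals that held 1, so within the distal cells Lamc1 did not follow Lama5 and Lamb1. Without the smaller cluster, the ratio to airway-like cells was 1.45 for Lamb1 and 1.15 for Lama5, and Lamb1 was no longer past 1.5-fold.

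These 2 clusters also differed in immediate-early genes, which rise within minutes of stress or growth signals. The 11 such genes together were at 588 CPM in the smaller and 2108 CPM in the larger cluster, and Fos at 33.8 and 284 CPM. Across the 4 epithelial classes they ran from 1698 CPM in distal progenitor-like to 3068 CPM in airway-like cells. When the 1175 distal progenitor-like cells of at least 5000 UMIs were divided by these genes into 3 sets of 391 or 392 cells, Col18a1 was at 152 CPM in the lowest, 95.9 CPM in the middle and 99.2 CPM in the highest set. Lama5 was at 36.2, 18.4 and 23.5 CPM, and Lamc1 at 83.7, 80.1 and 79.3 CPM. The lowest set had Col18a1 1.53-fold (1.27 to 1.85) and Lama5 1.54-fold (1.05 to 2.28) above the highest, 2 of the 8 genes with 50 UMIs, where 11.4% of 5801 genes were that much higher and 14.7% past 1.5-fold in either direction. The smaller cluster gave 69.9% of the cells of the lowest set and 1.28% of those of the highest. Its part in these differences was not tested. The immediate-early list was chosen after values were seen.

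Distal progenitor-like cells with a UMI of the proliferation genes Mki67 or Top2a (642 cells) were set against those without (533 cells) at 5000 UMIs. Lama3 was 2.33-fold higher in the former (1.37 to 4.09), the 1 gene of 9 past 1.5-fold, where 6.72% of 7071 genes were that much higher and 8.05% were past it in either direction. Itgb1 had a ratio of 1.28 (1.06 to 1.56). The intervals of the other 8 genes held 1, with Col18a1 at 0.934 (0.801 to 1.09) and Lamc1 at 1.17 (0.968 to 1.41).

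The genes were seldom seen together in 1 cell. Over 3303 epithelial cells at 5000 UMIs, the Pearson correlations of the 45 pairs ran from -0.03 to 0.09. Col18a1 and Lamc1, the pair with the highest value, were found together in 8.60% of cells (7.66% to 9.61%), where the product of their shares is 7.52%. In 6 of the 45 pairs the interval of the joint share lay above that product, and among the 1175 distal progenitor-like cells this was so for 0 pairs. Sparse counts keep such values near 0, so UMIs were also summed over 40 groups of neighbouring epithelial cells, of 27 to 156 cells each, as log2(CPM + 10).

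Over these groups Col18a1, Lamc1 and Lama3 went together, with Pearson correlations of 0.94 for Col18a1 and Lamc1, 0.84 for Lama3 and Lamc1 and 0.82 for Col18a1 and Lama3. Col4a1 and Col4a2, which share a start, had 0.59 over 40 groups, 0.87 over 20 and 0.59 over 80. Itgb1 had -0.39 to 0.39 with the other 9 genes, and 0.05 with Itga6, a partner in one integrin. The values describe groups of 1 library that differ in class, depth and immediate-early genes. Col18a1 had -0.88 with Sox2 and 0.83 with Sox9, markers of airway and distal cells, -0.67 with the summed immediate-early genes and 0.21 with median depth. Lamc1 had -0.84, 0.89, -0.53 and 0.32, and Lama5 -0.09, 0.07, -0.50 and -0.31 with the same measures. Col18a1 and Lamc1 thus tracked the distal marker and Lama5 did not.

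**Figure D4:**
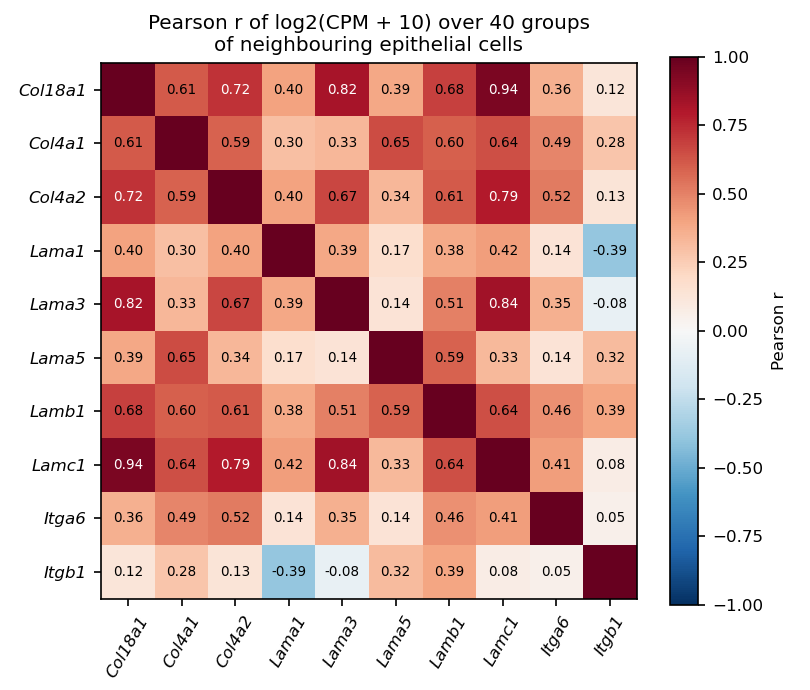
Pearson correlation of log2(CPM + 10) for each pair of genes over 40 groups of neighbouring epithelial cells of the control library (colour from -1, blue, to 1, red, with the value in each square). Col18a1, Lama3 and Lamc1 have 0.82 to 0.94 with each other, and the row of Itgb1 stays between -0.39 and 0.39.

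The genes most like each of the 10, among 7034 genes with at least 500 UMIs, were named by the same correlation. Those of Col18a1 included Mia (0.95) and Lamc1 (0.94), and those of Lamc1 included Col18a1 (0.94) and Etv5 (0.93), an FGF-responsive factor of the distal tip. Lama3 was closest to Cytl1 (0.89), Ctnnd2 (0.87) and Mest (0.87). Lama5 was closest to Hspg2 (0.82), the gene of perlecan, Flna (0.75) and Celsr1 (0.71), and Lamb1 to Bmp1 (0.75), Flna (0.75) and Itga3 (0.75). Col4a1 was closest to Sf3b3 (0.81), Sptbn1 (0.73) and Hspg2 (0.72), and Col4a2 to Galnt1 (0.81), Ssr4 (0.80) and Lamc1 (0.79). Itga6 was closest to Utp14a (0.73), Fat1 (0.70) and Slc38a2 (0.69), and Itgb1 to Cers2 (0.86), Sqle (0.85) and Txndc5 (0.84). Lama1, with 69 UMIs over all epithelial cells, had 0.58 with Pla2g1b, 0.57 with 1190005I06Rik and 0.56 with Tmem126a.

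The other genes of the basement membrane and its receptors did not share 1 direction between distal progenitor-like and airway-like cells. The counts of higher and lower genes given below for each list stand beside 6.70% of all 10601 genes higher and 23.3% lower by 1.5-fold or more. Among the other laminin chains, Lamb3, the beta chain of the laminin that holds Lama3, was at 1.21 (0.887 to 1.65), an interval holding 1, while Lama3 was at 5.79. Ntn4, a laminin-related netrin, was lower at 0.251 (0.151 to 0.405), and Lamb2 was at 1.04 (0.717 to 1.53). Lama2 and Lama4 had 0 UMIs in distal progenitor-like and 1 and 2 UMIs in airway-like cells.

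Of the other collagen IV chains, 3 of 4 had enough UMIs. Col4a4 was higher, at 9.19 against 3.73 CPM (2.46, 1.67 to 3.73), whereas Col4a5 at 0.736 (0.626 to 0.865) was below 1 and Col4a6 at 0.853 (0.654 to 1.12) had an interval that held 1. Of the 16 linkers and proteoglycans, 11 had enough UMIs, with 1 higher and 1 lower. Hspg2 was at 1.51 (1.26 to 1.81) and Pxdn, the enzyme that crosslinks collagen IV, at 1.48 (1.24 to 1.77), while Smoc2 was at 0.379 (0.340 to 0.421) and Sparc, a collagen-binding matricellular protein, at 0.668 (0.640 to 0.697). The nidogens, which link laminin to collagen IV, were nearly absent from the epithelial cells: Nid1 had 4 and 6 UMIs and Nid2 had 2 and 0.

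Of the 17 other integrin subunits, 5 had enough UMIs. Itga3, another alpha subunit for laminins, was higher at 1.64 (1.29 to 2.09), and 3 were lower, the lowest being Itga9 at 0.167 (0.102 to 0.265) and Itgb5 at 0.346 (0.232 to 0.510). Itgav was at 0.952 (0.749 to 1.21). Itgb4, the hemidesmosome partner of Itga6, had 10 and 24 UMIs. Of the 9 other laminin receptors and hemidesmosome genes, 8 had enough UMIs and 2 were lower. Dst was at 0.218 (0.134 to 0.345) and the tetraspanin Cd151, which associates with laminin-binding integrins, at 0.585 (0.516 to 0.662). Sdc4 at 1.27 (1.17 to 1.37) and Rpsa at 1.24 (1.22 to 1.26) had the highest ratios. Rpsa encodes ribosomal protein SA and was at 3834 against 3090 CPM, so its ratio cannot be read as that of a laminin receptor alone.

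All 12 integrin adaptors had enough UMIs, with 1 higher and 1 lower. Fermt1, the epithelial kindlin, was at 1.51 (1.13 to 2.03) and Vcl at 1.38 (1.11 to 1.73), and Parva at 0.636 (0.560 to 0.723) and Lims1 at 0.711 (0.623 to 0.812). Of the 11 collagen assembly enzymes and chaperones, 9 had enough UMIs, with 1 higher, Loxl2 at 1.83 (1.34 to 2.55), and 2 lower, the prolyl hydroxylase subunits P4ha2 at 0.462 (0.293 to 0.722) and P4ha1 at 0.486 (0.385 to 0.613). P4hb was at 1.245 (1.17 to 1.33). Of the 12 matrix proteases and inhibitors, 10 had enough UMIs, with 1 higher and 5 lower. Timp1 was at 1.92 (1.03 to 3.80) and Mmp15 at 1.29 (0.993 to 1.67), and Ctsl at 0.462 (0.412 to 0.517) and Mmp14, a membrane-bound collagenase, at 0.483 (0.412 to 0.565). The medians of the 8 lists ran from -0.66 for the integrin subunits to 0.32 for the linkers on the log2 scale, without centring on the median of all genes.

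**Figure D5:**
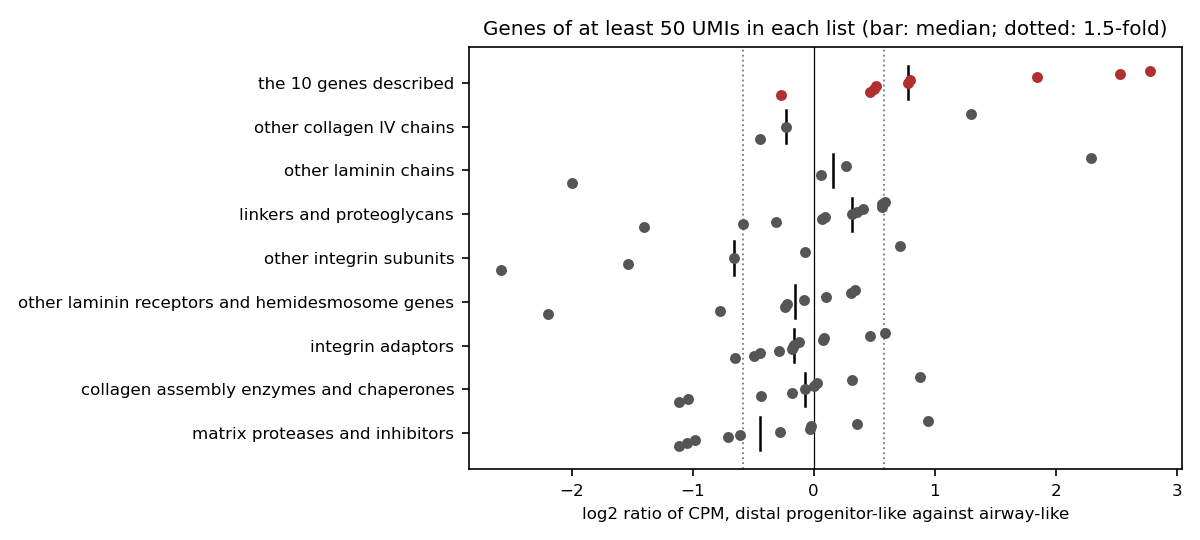
Log2 ratio of CPM between distal progenitor-like and airway-like cells (horizontal axis) for each gene of at least 50 UMIs in the 10 genes described (red) and in 8 related lists (grey); black bars are medians and dotted lines mark 1.5-fold. The median of the 9 red points is 0.78, and those of the grey lists lie between -0.66 and 0.32, where that of all genes is -0.20. The genes and lists were chosen with earlier results of these data known.

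Several genes of the related lists were past 1.5-fold in the alveolar classes, and they did not share 1 direction. Against distal progenitor-like cells, Serpinh1, the chaperone of collagens, was at 2.09 (2.01 to 2.17) in alveolar type 2-like and 1.70 (1.64 to 1.76) in alveolar type 1-leaning cells. P4ha2 was at 2.13 (1.41 to 3.28) and 2.29 (1.56 to 3.43). Bcam, a receptor of laminin alpha 5, was at 1.57 (1.44 to 1.72) and 1.54 (1.42 to 1.67), while Lama5 itself was at 0.589 and 0.905. Ilk, an integrin-linked adaptor, was at 1.79 (1.62 to 1.98) and 1.53 (1.39 to 1.69). Col4a5, at 0.591 (0.488 to 0.714), and Col4a6, at 0.607 (0.448 to 0.815), were lower in alveolar type 2-like cells, and Smoc2, at 3.395 (3.09 to 3.73), was higher in alveolar type 1-leaning cells. Fbln1, a fibulin, was at 2.42 (2.19 to 2.67) and 1.53 (1.39 to 1.70), and Sparc at 1.98 (1.90 to 2.05) and 2.44 (2.36 to 2.52). Of the 12 linkers and proteoglycans with enough UMIs, 2 were higher and 2 lower in the first class and 3 higher and 1 lower in the second. Among all genes, 15.2% were that much higher and 5.80% lower in the first class, and 14.5% and 2.17% in the second.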

How the data were processed

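Per the labels, sorted epithelial cells were run on the 10x platform and sequenced on a NextSeq500. The values deposited are raw UMI counts, whole numbers for each gene in each barcode. Cell Ranger, Seurat and mm10 are named, without roles, in the submitters' processing notes, and the software version is 3.0.1 per the file headers. The gene annotation and the rule for calling cells are not given in the sources used here. Expression in the knockout library was not analysed here.

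The members and gene lists were chosen with earlier results of these data known. Barcodes with at least 1000 genes and at most 10% mitochondrial UMIs were kept, 3457 of 3568, with 2013 UMIs or more each and 53639813 UMIs in all. On the log of UMIs per 10000, the 2000 genes that varied most, each in 10 cells or more and without the 10 members, 88 related and 94 cell-cycle genes, gave 20 components and a graph of 20 neighbours. It was clustered with Leiden at resolution 0.5 and seed 0. Tools were matplotlib 3.10.9, scikit-learn 1.9.0, scanpy 1.11.5, scipy 1.17.1, leidenalg 0.10.2, numpy 2.4.6 and Python 3.11.15. A name needed 3 markers of at least 10 UMIs each at 2 or more times their level outside the cluster, and no class with more markers among its 10 leading genes. Clusters that missed this rule were called distal progenitor-like under 2 conditions. At least 3 distal markers had to be at 1.5 or more times the airway level, and no other class could have more markers among the leading genes. The alveolar type 1-leaning cluster met the first with 6 distal markers. It missed the second, as its leading genes held the type 1 marker Ager and no distal marker. Genes left out of clustering did not count as leading genes, a choice made after the clusters were seen, and the cluster of low mitochondrial share stayed unnamed. No doublet caller was used.

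UMIs were summed per class and given as CPM. With 1 library per group there was no test. A gene counted as past the limit with at least 50 UMIs over both classes and a ratio of 1.5 or more, or its inverse or less. Limits for a count of 0 are 3 counts of the total. The named genes were all members, the 2 highest and 2 lowest ratios of each other list for distal progenitor-like against airway-like cells, and the 3 genes most like each member, except where an item is not reported here. Other genes were named after their values were seen. The ratio script was tested on simulated counts. Alternatives covered the clustering, cell filters, weighting, thinning, centring and limits.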

Additional observations from a re-analysis of the deposited data

How the results depend on the processing

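Over all alternatives with a value, no member past 1.5-fold changed direction, and of 489 ratios of single genes 369 stayed within the counting interval of the reported value. Members not past 1.5-fold did change direction in some alternatives, such as Col18a1, Col4a2, Lama3, Lamc1 and Itga6 in alveolar type 2-like cells at a resolution of 0.8. For distal progenitor-like against airway-like cells, all members but Itgb1 were above 1 and Itgb1 was below 1 in every alternative with a value, and the count of 5 members past 1.5-fold became 8 in cells with a Y-linked UMI and no Xist, 8 after centring, 8 at a lower fold limit and 3 at a limit of 2. It was 4 to 6 in the other alternatives, while 12.2% to 54.1% of all genes were past the limit over all alternatives. It was 4 in the 6 that left the alveolar cells inside the distal class. There Lamb1 and Col4a2 were no longer past 1.5-fold, so the 4 included a member outside the reported 5. For alveolar type 2-like cells, the count of 1 became 0 without the smaller distal cluster and at a limit of 2, 2 in Xist-high cells, in cells with no Mki67 or Top2a UMI, after thinning to 5000 UMIs and at a minimum of 10 UMIs, and 3 at the lower limit. For alveolar type 1-leaning cells, the count of 2 became 1 with 30 components (Lama1, in place of Col18a1 and Lama3) and 1 without the smaller distal cluster, 5 in cells of at most 14000 UMIs, 4 after thinning, 6 at the lower limit and 0 at a limit of 2. In the reported setting 21.0% of all genes were past 1.5-fold for alveolar type 2-like and 16.7% for alveolar type 1-leaning cells. The shares under the alternatives are not given here, so these changed counts cannot be set against a background. The Lama3 share of alpha chain UMIs became 5.49% in airway-like and 19.5% in alveolar type 1-leaning cells of at most 14000 UMIs. The cause was not tested. Leaving out the smaller distal cluster, or the 1 cell of over 20 red cell and platelet UMIs, was chosen after seeing the data. The alveolar classes could not be named in 14 combinations of setting and comparison, which have no value: with listed or cell-cycle genes kept in clustering, 1000 variable genes, resolution 0.3, seed 1 and at most 5% mitochondrial UMIs for both, 30 components for the type 2-like and at least 2000 genes for the type 1-leaning class. The split of the distal cells is thus unstable, while airway-like cells were found in every alternative. Shares of cells moved with the depth they were read at in 53 of 60 cases. With 1 library per group, spread between embryos is unknown, and Lama1 is too sparse for comparisons among the alveolar classes. No paired analysis was possible because each group has 1 library.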
